A study of Mus musculus with 24 samples.

Results

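Interferon transcription factors of the IRF and STAT families were followed in endothelial cells and microglia of mouse brain slices that had received tumour exosomes. The set holds 9 genes, chosen by name: the transcription factors Irf1, Irf2, Irf3, Irf5, Irf7, Irf8, Irf9 and Stat2, and Ifnar1, which encodes a chain of the type I interferon receptor. They are 9 of the 20555 genes in the deposited table of each cell type. All 9 had reads in at least 2 libraries of each type and entered the tests.

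Slices were given exosomes, small vesicles released by cells, at 5 µg per slice, or phosphate-buffered saline (PBS), for 2 days. Endothelial cells, which line blood vessels, were sorted as CD45- CD31+, and microglia, the macrophages resident in the brain, as CD45+ with low CD11b and low CD49d. The series title concerns CEMIP, a hyaluronan-binding protein, as cargo of tumour exosomes, and the design asks what exosomes do to each cell type and whether those of 2 knockouts, KO1 and KO2, differ from wild type (WT) ones. The 4 groups were slices with WT exosomes, KO1 exosomes, KO2 exosomes and PBS. The knockouts lay in the source of the exosomes, so that all slices came from mice for which the labels name no altered gene, and neither the strain nor the age of the mice is given in them. Exosomes carried the green membrane dye PKH67. The labels describe every sample, PBS included, as positive for exosomes, so the gate used on PBS slices, which received no dyed vesicles, is unclear.

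In endothelial cells 10 libraries were analysed, 2 with WT exosomes, 3 with KO1, 2 with KO2 and 3 with PBS. In microglia there were 11, of which 3 each had WT, KO1 and KO2 exosomes and 2 had PBS. Each library carries a letter, A, B or C, whose meaning the labels do not give, so p-values measure only the spread between these libraries, which may be technical. Endothelial WT C and KO2 A and microglial PBS C were not analysed here. Levels are normalised counts recovered from the deposited values, separately for each cell type, and are compared only within a gene and a cell type. Differences are on the deposited log2 scale, which compresses changes.

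The libraries followed their gates in part. Summed endothelial markers came to 270943 to 347183 normalised counts where endothelial cells were sorted and 327 to 940 where microglia were, and summed microglia markers to 23140 to 35429 in microglia against 72 to 2090 in endothelial cells. In microglia 5 to 8 of 12 microglia markers reached 100 counts, while Cx3cr1, a defining receptor of these cells, lay between 0 and 156. Endothelial libraries also held choroid plexus and ependyma markers, at 205190 and 233541 in the WT libraries, 6727 to 360199 with KO1, 22988 and 312614 with KO2, and 965 to 7390 with PBS. A single gene, Ttr, held 168508 and 186101 of the WT sums. Estimated depth was 18.3 to 35.5 M reads per endothelial library, and that of microglia is unknown. Per endothelial library, 0 to 94 genes with a median of at least 1000 counts in the other libraries were listed at 0, against 0 to 14 per microglial library.

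Type I interferon binds a receptor of 2 chains, and the kinases attached to it activate STAT2. With IRF9 it forms part of a complex called ISGF3, which binds the interferon-stimulated response element (ISRE) in front of target genes. The gamma-activated site (GAS) is an element in front of genes that answer type II interferon. IRF3 and IRF7 are switched on by sensors of foreign nucleic acid and turn on the interferon genes themselves, and Irf7 is itself a target of ISGF3. In the brain both microglia and endothelial cells answer interferon.

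Sequence before the start of these genes was searched for 2 motifs, since the factors act on one another's promoters. RefSeq promoters on GRCm38.p6 were found for 9 of 9 genes, and the 250 bases before each listed start were read on both strands. The ISRE was searched as GAAANNGAAA, which 978 of all 32851 promoters hold (2.98%), and the GAS as TTCNNNGAA, held by 2306 (7.02%). Neither motif overlapped the other in the genes shown. An ISRE match was found for 2 of 9 genes, Stat2 and Irf2, and a GAS match for 3 of 9, Irf1, Irf2 and Irf8. The shares over all are per promoter, and the 9 genes have 12 promoters, of which 2 hold an ISRE match and 3 a GAS match. The matched stretches follow, with the match in capitals, and the 250 bases of Irf7 are given because its differences had the largest standard errors of the 9 genes and neither motif was matched there. Part of the Irf7 window lies inside the RefSeq span of the gene.
Stat2, chr10:128270248-128270330, plus strand: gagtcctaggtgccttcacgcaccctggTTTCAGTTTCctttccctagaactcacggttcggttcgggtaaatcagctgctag
Irf2, chr8:46739495-46739574, plus strand: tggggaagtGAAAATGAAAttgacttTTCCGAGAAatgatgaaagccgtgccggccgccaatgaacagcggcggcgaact
Irf1, chr11:53769879-53769977, plus strand: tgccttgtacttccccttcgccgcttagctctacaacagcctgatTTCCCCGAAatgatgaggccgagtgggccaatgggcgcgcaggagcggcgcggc
Irf8, chr8:120736142-120736258, plus strand: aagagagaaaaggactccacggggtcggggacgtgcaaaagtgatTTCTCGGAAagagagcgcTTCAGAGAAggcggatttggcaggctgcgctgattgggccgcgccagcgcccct
Irf7, chr7:141266425-141266674, minus strand: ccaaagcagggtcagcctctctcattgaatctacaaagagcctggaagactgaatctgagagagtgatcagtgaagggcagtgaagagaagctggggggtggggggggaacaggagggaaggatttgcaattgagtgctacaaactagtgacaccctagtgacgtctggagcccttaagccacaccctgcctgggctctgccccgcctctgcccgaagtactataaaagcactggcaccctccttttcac
The ISRE match of Stat2 is on the opposite strand, where it reads as its reverse complement in the line above, and that of Irf2 is on the strand shown. A match describes letters only, and the absence of one in the Irf7 window says nothing of factors that bind elsewhere.

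In endothelial cells 3 of the 9 genes, Irf7, Stat2 and Irf8, lay higher in both WT libraries than in every PBS library, and none of the 9 passed the test. The limma test with Benjamini-Hochberg adjustment called 0 of 9 genes between WT and PBS, where it called 3 of all 12972 genes tested (0.0231%). At an unadjusted p under 0.05 there were 3 of 9, all higher, against 1259 genes in either direction (9.71%) and 429 higher (3.31%). Libraries that did not overlap, with WT above PBS, were found for 13.3% of all genes. The median difference of the 9 genes was 0.14, that of all genes -0.01.

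The receptor chain and the parts of ISGF3 come first. Ifnar1 (Entrez gene 15975, chr16:91485032-91510523) encodes the receptor chain that binds the kinase TYK2. It had 2009 and 1629 normalised counts in WT (A, B), 1518, 2355 and 1500 in KO1 (A, B, C), 1066 and 2318 in KO2 (B, C), and 1599, 1734 and 2031 in PBS (A, B, C). The 4 groups overlapped throughout, and WT minus PBS was 0.01 (SE 0.0867, 95% interval -0.19 to 0.20).

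Stat2 (Entrez gene 20847, chr10:128270498-128292853) supplies the activating part of ISGF3. It had 6363 and 5004 counts in WT (A, B), 2254, 2327 and 0 in KO1 (A, B, C), 1973 and 1717 in KO2 (B, C), and 2050, 902 and 662 in PBS (A, B, C). Both WT libraries lay above all 8 others, and KO1 C was listed at 0, as Irf5 was in that library. Of all genes 13.3% had WT above PBS and 4.25% WT above the knockouts without overlap, and the share with both was not counted. The WT group averaged 5684 ± 960.9 (SD, n = 2) and the PBS group 1205 ± 741.7 (SD, n = 3). The difference was 0.58 (SE 0.191, 95% interval 0.15 to 1.01, limma adjusted p = 0.41), and on recovered counts with a pseudocount of 50 it was 2.34 log2 units. Within letters, WT exceeded PBS by 3.10-fold in A and 5.55-fold in B.

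Irf9 (Entrez gene 16391, chr14:55603985-55610030) gives ISGF3 its DNA contact. Its counts were 9703 and 4088 in WT (A, B), 10441, 5233 and 2247 in KO1 (A, B, C), 7446 and 3561 in KO2 (B, C), and 5011, 3558 and 4076 in PBS (A, B, C). The range with exosomes enclosed the range with PBS, and the highest values were those of KO1 A and WT A. WT minus PBS was 0.22 (SE 0.21, 95% interval -0.25 to 0.69).

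Irf7 (Entrez gene 54123, chr7:141263183-141266499), which amplifies the interferon response by inducing further interferon genes, spread most. It had 32220 and 12585 counts in WT (A, B), 25396, 7320 and 2801 in KO1 (A, B, C), 16057 and 2477 in KO2 (B, C), and 2219, 1848 and 853 in PBS (A, B, C). All 7 exosome libraries lay above all 3 PBS libraries, the letter C libraries of KO1 and KO2 by the least. Over all genes this was counted only by part, at 13.3% for WT and 1.89% for the knockouts. Within a letter WT exceeded PBS by 14.5-fold in A and 6.81-fold in B. KO1 exceeded PBS by 11.4-fold in A, 3.96-fold in B and 3.28-fold in C. KO2 exceeded PBS by 8.69-fold in B and 2.90-fold in C.

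Despite these ratios no Irf7 difference in endothelial cells passed the adjusted threshold. WT minus PBS was 1.37 (SE 0.407, 95% interval 0.45 to 2.29, limma adjusted p = 0.365), with an unadjusted p of 0.00805. On recovered counts with a pseudocount of 50 the same difference was 3.68 log2 units. The knockout mean minus PBS was 0.72 (SE 0.328, 95% interval -0.02 to 1.46, limma adjusted p = 0.764), and 0.464 without KO2 B. The authors' deposited table lists Irf7 in endothelial cells with an adjusted p of 4.4e-05 for a likelihood ratio test with 3 degrees of freedom, that is, for any difference among the 4 groups. That table holds 362 genes in endothelial cells and lists none of the other 8 genes there. The limma F test over the same 4 groups gave Irf7 an adjusted p of 0.616 (F 3.94), or 0.577 with the letter as a block (F 8.05), and it called 0 of 9 genes and 2 of 12972 genes (0.0154%), with 3 of 9 and 1040 genes (8.02%) at an unadjusted p under 0.05.

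**Figure D1:**
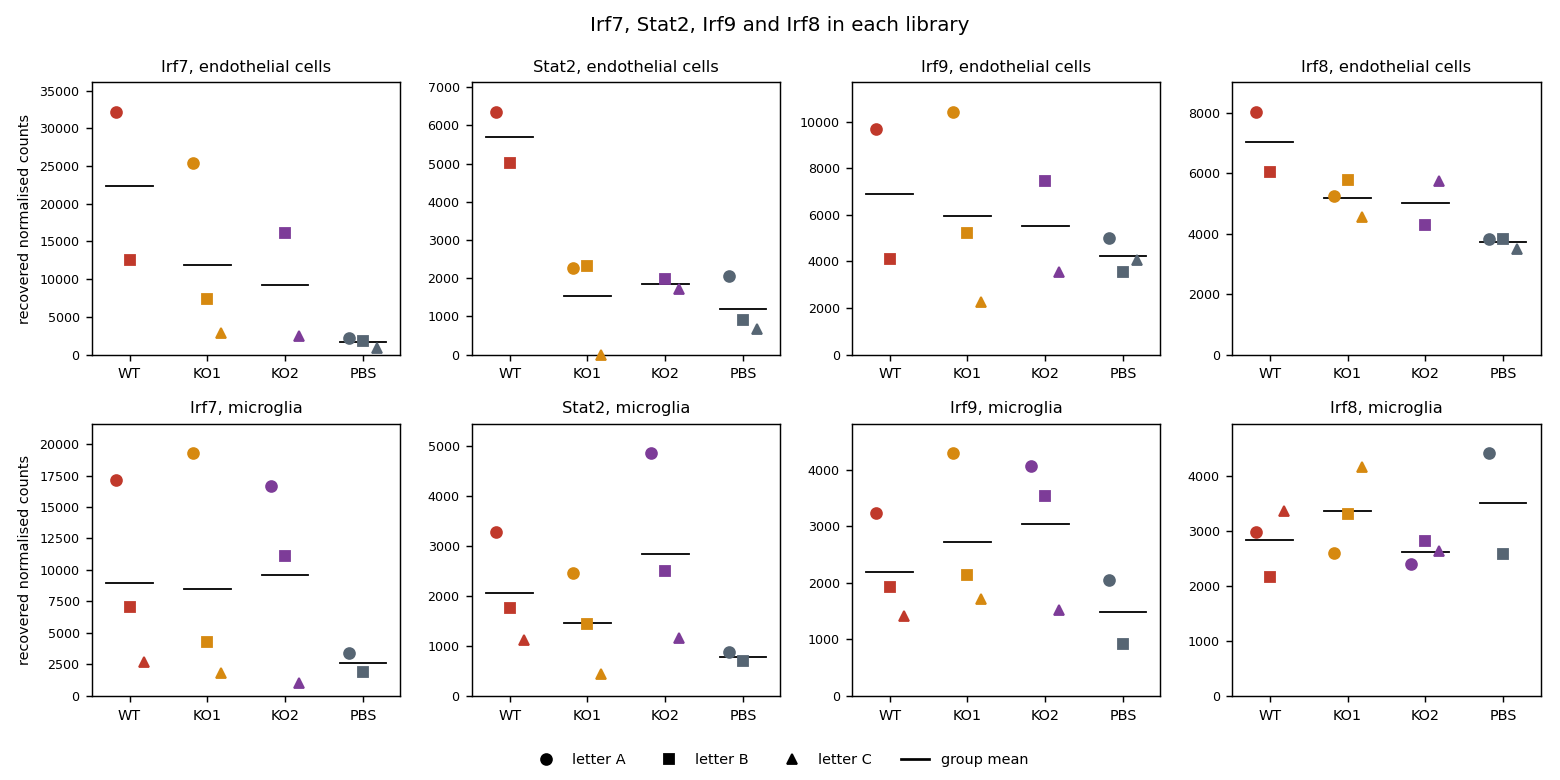
Normalised counts recovered from the deposited values (vertical axes, from 0) for Irf7, Stat2, Irf9 and Irf8 in each library of endothelial cells (top) and microglia (bottom), by group; the symbol gives the letter and the bar the group mean. In endothelial cells all 7 exosome libraries lie above all 3 PBS libraries for Irf7, while Stat2 is highest in the 2 WT libraries; in microglia the exosome libraries of letter C reach 1022 to 2724 counts of Irf7, near the PBS libraries at 3408 and 1856.

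The other factors that sensors activate gave smaller differences. Irf3 (Entrez gene 54131, chr7:44997648-45002848) is present before infection and starts interferon synthesis. It ranged from 345 to 1036 counts over the 7 exosome libraries and from 512 to 813 with PBS, with WT minus PBS at 0.05 (SE 0.0893). Irf5 (Entrez gene 27056, chr6:29526130-29541869), which drives inflammatory cytokines, had 1440 and 965 counts in WT (A, B), 1255, 458 and 0 in KO1 (A, B, C), 253 and 420 in KO2 (B, C), and 1382, 341 and 335 in PBS (A, B, C). Its highest value outside WT was in PBS A, so that groups overlapped, and WT minus PBS was 0.14 (SE 0.146).

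Irf8 (Entrez gene 15900, chr8:120736358-120756694) is known as a factor of macrophages and microglia, yet it was read in every endothelial library. It had 8050 and 6033 counts in WT (A, B), 5258, 5775 and 4559 in KO1 (A, B, C), 4279 and 5742 in KO2 (B, C), and 3825, 3840 and 3503 in PBS (A, B, C). WT lay above both knockouts and all exosome libraries lay above PBS. Counted separately, 4.25% of all genes had WT above the knockouts, 13.3% WT above PBS and 1.89% the knockouts above PBS without overlap. The WT group averaged 7042 ± 1426 (SD, n = 2), and the PBS group 3723 ± 190.4 (SD, n = 3). The difference was 0.31 (SE 0.0753, 95% interval 0.14 to 0.48, limma adjusted p = 0.297), and it had the lowest unadjusted p of the 9 genes, 0.00256.

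Markers of other cells stand beside these values. Microglia markers summed to 1172 and 2019 in the WT endothelial libraries, 72 to 1762 with KO1, 973 and 2090 with KO2, and 782 to 1028 with PBS. Of 12 such markers 0 to 2 reached 100 counts and 5 to 11 were listed at 0 per endothelial library. Border-associated macrophage markers summed to 8049 and 8314 with WT, 8957 to 19129 with KO1, 10917 and 10985 with KO2, and 8559 to 12901 with PBS. These sums rest on few genes, since 1 to 4 of 9 such markers reached 100 counts and 5 to 8 were listed at 0 per library. Ptprc, the gene of CD45, was at 0 in the 2 WT and all 3 PBS endothelial libraries. It stood at 119 counts in KO1 B, 290 in KO2 C and 0 in the other 3 knockout libraries. Itgam, the gene of CD11b, had 0 and 1226 counts in WT (A, B), 25.8, 1298 and 27.3 in KO1 (A, B, C), 438 and 0 in KO2 (B, C), and 6.11, 9.58 and 4.54 in PBS (A, B, C). The part of these cells in the values of Irf8 or of any other gene was not tested, and in sorted bulk samples fewer cells of a type and less RNA per cell cannot be told apart.

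Irf7 and choroid plexus markers were both high in the same endothelial libraries. The 5 libraries with 201747 to 360199 summed choroid plexus and ependyma counts, WT A, WT B, KO1 A, KO1 B and KO2 B, were the 5 with the most Irf7, at 7320 to 32220 counts. Most of each of these sums was 1 gene, Ttr, at 164800 to 276884 counts. In these libraries 7 to 10 of the 13 markers reached 100 counts, against 3 in KO1 C and in KO2 C. Fibroblast and meninges markers were high in the same 5 libraries, at 3232 to 9943 counts, against 199 in KO1 C, 2078 in KO2 C and 575 to 1486 with PBS. Astrocyte markers summed to 9333 and 16671 with WT, 13627 to 24396 with KO1, 19564 and 19972 with KO2, and 19086 to 41645 with PBS. The fibroblast and astrocyte sums also rest on few genes. Per endothelial library 1 to 5 of 9 fibroblast and meninges markers reached 100 counts and 3 to 7 were listed at 0. For astrocytes 1 to 5 of 10 markers reached 100 counts and 1 to 7 were listed at 0. In KO1 C the choroid plexus markers summed to 6727, within the range of the PBS libraries, and Irf7 stood at 2801 there against at most 2219 with PBS. In the microglial libraries of letter A with exosomes the choroid plexus markers summed to 75 to 538, and Irf7 stood at 16655 to 19308. Ttr held 47.5 to 525 counts there. In letter B, KO2 had the highest sum, 12782, and the most Irf7, 11129, against sums of 481 with WT and 1260 with KO1. PBS A had a sum of 9016 with 3408 counts of Irf7, and PBS B 691 with 1856. WT A and KO1 A, the endothelial libraries with the most Irf7, also had the fewest genes above the floor, 9235 and 9516, against 11305 to 11952 with PBS. KO1 C and KO2 C, the exosome libraries with the least Irf7, were also low, at 9869 and 9912. WT B, KO2 B and KO1 B had 10607, 10739 and 11531. In WT A and KO1 A 94 and 75 genes with a median of at least 1000 counts elsewhere were listed at 0, against 0 to 6 with PBS. In KO1 C and KO2 C there were 29 and 34, in WT B 19, in KO2 B 13 and in KO1 B 2. The part of these markers and of these losses in the Irf7 values was not tested.

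**Figure D2:**
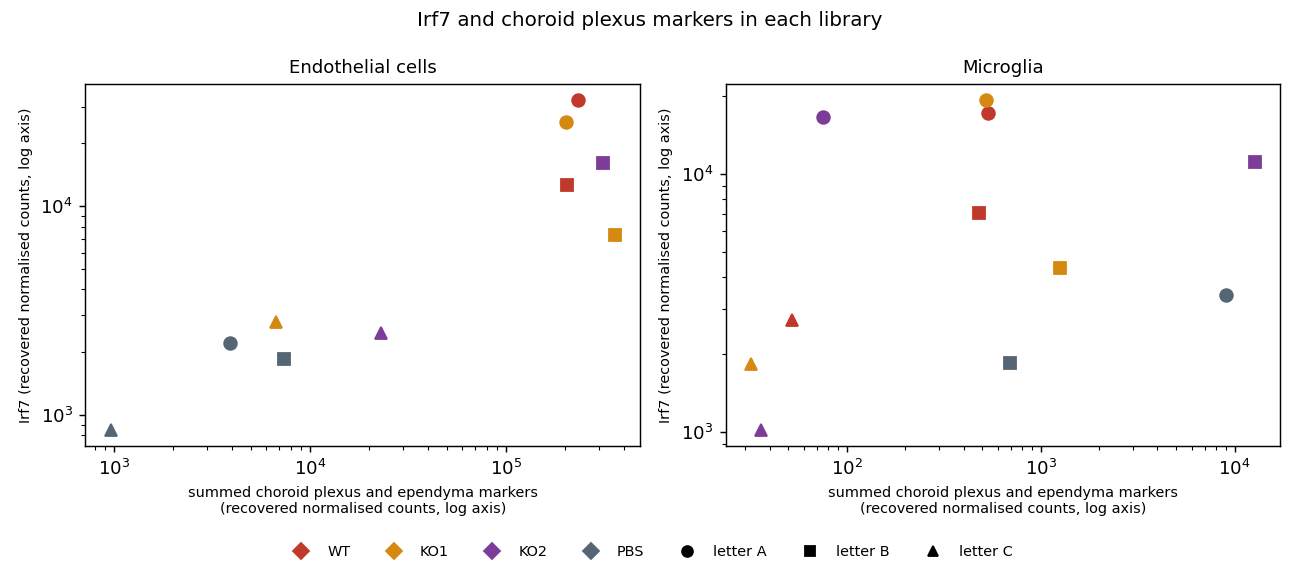
Irf7 (vertical axis, recovered normalised counts, log scale) against the sum of 13 choroid plexus and ependyma markers (horizontal axis, recovered normalised counts, log scale) in each library of endothelial cells (left) and microglia (right); colour gives the group and shape the letter. In endothelial cells 5 exosome libraries with marker sums of 201747 to 360199 carry the most Irf7, while in microglia the 3 exosome libraries of letter A carry the most Irf7 at marker sums of 75 to 538. Ttr alone holds most of each of these 5 endothelial sums.

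Irf1 and Irf2 bind the same sites, and for both WT and PBS libraries overlapped. Irf1 (Entrez gene 16362, chr11:53770014-53778374), an activator induced through the GAS, had 6188 and 4292 counts in WT (A, B), 9001, 4933 and 3081 in KO1 (A, B, C), 3908 and 4369 in KO2 (B, C), and 8772, 4212 and 6088 in PBS (A, B, C). The 4 groups of Irf1 overlapped, with high values in KO1 A and PBS A, and WT minus PBS was -0.09 (SE 0.155). Irf2 (Entrez gene 16363, chr8:46739745-46847458), which competes with Irf1 and mostly represses, ranged from 1063 to 2997 counts over exosome libraries and from 1375 to 2733 with PBS, with WT minus PBS at -0.14 (SE 0.0891).

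Knockout exosomes were set against WT exosomes for the question on CEMIP. In endothelial cells 0 of 9 genes were called, where 4 of all 12972 were (0.0308%), and at an unadjusted p under 0.05 there were 2 of 9, both lower, against 1046 genes in either direction (8.06%) and 492 lower (3.79%). Stat2 lay lower in all 5 knockout libraries, at 0 to 2327 counts, than in both WT libraries, at 5004 and 6363. The knockout mean minus WT was -0.53 (SE 0.176, 95% interval -0.92 to -0.13, limma adjusted p = 0.499). Within letters KO1 held 0.354 of the WT count in A and 0.465 in B, and KO2 held 0.394 in B. Irf8 lay lower in the knockouts too, at 4279 to 5775 counts against 6033 and 8050 with WT, with a difference of -0.17 (SE 0.0694, limma adjusted p = 0.603), which was -0.0866 without WT A. Libraries that did not overlap, with knockouts below WT, were found for 4.25% of all genes.

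Irf7 did not part the knockouts from WT. Its knockout values ranged from 2477 to 25396 counts and enclosed the WT value of 12585, and the difference was -0.65 (SE 0.376, 95% interval -1.5 to 0.19, limma adjusted p = 0.721). It was -0.259 without WT A, -1.04 without WT B, -0.275 with the letter as a block and -0.248 without letter C. In letter B, KO1 held 0.582 and KO2 1.28 of the WT count, so the knockouts lay on opposite sides of WT. The remaining differences of the knockout mean from WT were -0.23 for Irf5, -0.10 for Irf9, -0.04 for Irf1 and Irf3, -0.02 for Ifnar1 and 0.13 for Irf2, all with overlapping libraries.

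Between KO1 and KO2 endothelial cells 0 of 9 genes were called, as were 0 of 12972 genes (0%), with 0 of 9 and 738 genes (5.69%) at an unadjusted p under 0.05. Irf2 was lower in all 3 KO1 libraries, at 1358 to 2059 counts, than in both KO2 libraries, at 2115 and 2997, where 7.92% of all genes had KO1 below KO2 with no overlap. The Irf2 difference was -0.14 (SE 0.0891, limma adjusted p = 0.881). The Irf7 difference, KO1 minus KO2, was 0.14 (SE 0.407, 95% interval -0.78 to 1.05).

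Against PBS, the knockout mean called 0 of 9 genes in endothelial cells and 15 of 12972 genes, all lower (0.116%), and 1 of 9 and 863 genes (6.65%) had an unadjusted p under 0.05. Irf7 and Irf8 lay above PBS in all 5 knockout libraries, where 1.89% of all genes did. The Irf8 difference was 0.14 (SE 0.0607, limma adjusted p = 0.723), with an unadjusted p of 0.0444. WT minus PBS and knockout minus PBS share their PBS libraries, and WT minus PBS and knockout minus WT share their WT libraries.

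**Figure D3:**
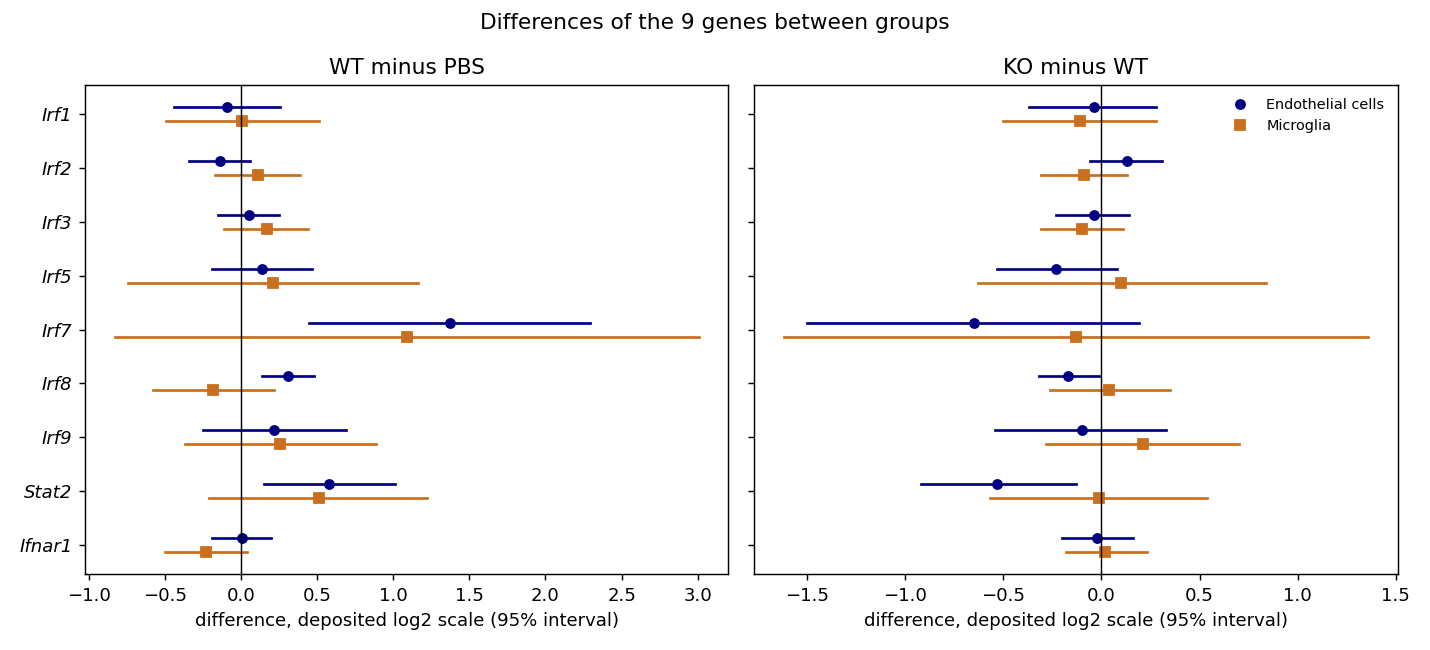
Differences of the 9 genes on the deposited log2 scale (horizontal axes), WT minus PBS on the left and the knockout mean minus WT on the right, with the 95% interval of the limma fit; circles are endothelial cells and squares microglia. Between WT and PBS the endothelial intervals of Irf7, Irf8 and Stat2 lie above 0, and in microglia every interval includes 0.

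In microglia Stat2 lay higher and Ifnar1 lower in all 3 WT libraries than in both PBS libraries, and none of the 9 genes passed the test. The limma test called 0 of 9 genes between WT and PBS and 1 of all 12709 genes (0.00787%), with 0 of 9 and 633 genes (4.98%) at an unadjusted p under 0.05. No overlap between WT and PBS was found for 7.81% of all genes with WT higher and 8.81% with WT lower. The median difference of the 9 genes was 0.17, that of all genes 0.

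Ifnar1 in microglia had 933, 1469 and 1639 counts in WT (A, B, C), 1441, 1390 and 1398 in KO1 (A, B, C), 1149, 1623 and 1364 in KO2 (A, B, C), and 1923 and 1896 in PBS (A, B). Each of the 9 exosome libraries lay below both PBS libraries, WT A the furthest. Over all genes this was counted only by part, at 8.81% for WT and 3.42% for the knockouts. The exosome libraries averaged 1378 ± 221.3 (SD, n = 9) and the PBS libraries 1910 ± 19.44 (SD, n = 2). WT minus PBS was -0.23 (SE 0.123, 95% interval -0.50 to 0.04, limma adjusted p = 0.965), or -0.136 without WT A, and the knockout mean minus PBS -0.20 (SE 0.11, 95% interval -0.44 to 0.04, limma adjusted p = 0.965).

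Stat2 in microglia had 3282, 1761 and 1122 counts in WT (A, B, C), 2459, 1437 and 444 in KO1 (A, B, C), 4860, 2492 and 1160 in KO2 (A, B, C), and 870 and 688 in PBS (A, B). Of the 9 exosome libraries 8 lay above both PBS libraries, and KO1 C lay below them. Within letters A and B the ratio to PBS was 3.77 and 2.56 for WT, 2.83 and 2.09 for KO1, and 5.58 and 3.62 for KO2. WT minus PBS was 0.51 (SE 0.326, 95% interval -0.21 to 1.22, limma adjusted p = 0.97), and 0.299 without WT A.

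Irf9 in microglia followed the same order of letters. It had 3239, 1917 and 1407 counts in WT (A, B, C), 4296, 2129 and 1719 in KO1 (A, B, C), 4070, 3532 and 1525 in KO2 (A, B, C), and 2044 and 922 in PBS (A, B). In each exosome group A was highest and C lowest, and PBS A lay within the exosome range. WT minus PBS was 0.26 (SE 0.289, 95% interval -0.37 to 0.89).

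Irf7 in microglia had 17179, 7069 and 2724 counts in WT (A, B, C), 19308, 4317 and 1841 in KO1 (A, B, C), 16655, 11129 and 1022 in KO2 (A, B, C), and 3408 and 1856 in PBS (A, B). The exosome libraries of letters A and B all lay above both PBS libraries, and those of letter C lay below PBS A. Within letters the ratio to PBS was 5.04 in A and 3.81 in B for WT, 5.67 and 2.33 for KO1, and 4.89 and 6 for KO2. WT minus PBS was 1.09 (SE 0.876, 95% interval -0.83 to 3.01, limma adjusted p = 0.974), and the knockout mean minus PBS 0.96 (SE 0.784, 95% interval -0.76 to 2.68, limma adjusted p = 0.965). Without WT A the first was 0.537, and with the letter as a block 1.73. Without KO1 A the second was 0.584, with the block 1.59 and without letter C 1.65. The wide intervals follow the spread within groups, of 7417 counts (SD, n = 3) around a mean of 8991 with WT.

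The authors' deposited table lists 238 genes in microglia, 3 of the 9 among them, for their likelihood ratio test with 3 degrees of freedom. That test gave Stat2 an adjusted p of 1.37e-07, Irf9 0.00301 and Irf7 0.0385. The limma F test on the deposited log2 values called 0 of 9 and 0 of 12709 genes (0%), with 0 of 9 and 499 genes (3.93%) at an unadjusted p under 0.05, and gave each of the 3 an adjusted p of 0.999, with F of 1.92 for Stat2, 1.2 for Irf9 and 0.63 for Irf7. With the letter as a block, F was 15.1 for Stat2 (limma adjusted p = 0.246), 8.47 for Irf9 (0.475) and 12.2 for Irf7 (0.339). The sources used here do not state which terms the authors' test held besides the groups.

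The other factors in microglia overlapped between groups. Irf5 had 6465, 4704 and 1208 counts in WT (A, B, C), 7405, 3339 and 1806 in KO1 (A, B, C), 6604, 4359 and 2933 in KO2 (A, B, C), and 3354 and 2602 in PBS (A, B), and again A was highest and C lowest in each exosome group. Irf8 ranged from 2151 to 4165 counts over exosome libraries and had 4417 and 2578 in PBS (A, B), with WT minus PBS at -0.18 (SE 0.181), whereas in endothelial cells the same difference was 0.31. The difference between the cell types was not tested. Irf3 ranged from 193 to 763 counts with exosomes and had 134 and 318 with PBS, with WT minus PBS at 0.17 (SE 0.125).

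Irf1 in microglia had 1900, 567 and 601 counts in WT (A, B, C), 1823, 969 and 376 in KO1 (A, B, C), 1024, 374 and 249 in KO2 (A, B, C), and 1053 and 833 in PBS (A, B). Letter A was again the highest in each exosome group, and WT minus PBS was 0.01 (SE 0.229). Irf2 ranged from 376 to 947 counts with exosomes and had 494 and 555 with PBS, with WT minus PBS at 0.11 (SE 0.128).

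Knockout and WT exosomes were not told apart by any of the 9 genes in microglia. The test called 0 of 9 genes and 0 of 12709 genes (0%), with 0 of 9 and 425 genes (3.34%) at an unadjusted p under 0.05. Knockout and WT libraries overlapped for all 9 genes, while all knockouts lay above WT for 0.787% of all genes and below it for 0.826%. The Irf7 difference was -0.13, with a 95% interval of -1.62 to 1.36. The differences of the other genes were 0.21 for Irf9, 0.10 for Irf5, 0.04 for Irf8, 0.02 for Ifnar1, -0.01 for Stat2, -0.09 for Irf2, -0.10 for Irf3 and -0.11 for Irf1. Between KO1 and KO2 no gene of the 9 or of the 12709 was called (0%), with 0 of 9 and 460 genes (3.62%) at an unadjusted p under 0.05, and the Irf7 difference was -0.19 (SE 0.784). The knockout mean minus PBS called 0 of 9 and 1 of 12709 genes (0.00787%), with 0 of 9 and 631 genes (4.96%) at an unadjusted p under 0.05, and Ifnar1 lay below PBS in all 6 knockout libraries, where 3.42% of all genes did.

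The letter moved with several of the genes in both cell types. Every exosome library of letter A lay above every exosome library of letter C for 5 of 9 genes in endothelial cells (Irf1, Irf5, Irf7, Irf9 and Stat2), where 14.3% of all genes did. In microglia this held for 6 of 9 genes (Irf1, Irf2, Irf5, Irf7, Irf9 and Stat2), where 7.96% of all genes did. Each letter holds libraries of several groups, and the values within letters are given above. In microglia letters A and C each held WT, KO1 and KO2 libraries. In endothelial cells letter A held WT and KO1 exosome libraries, and letter C held KO1 and KO2 ones. Letter and group therefore cannot be fully told apart there. In microglia Itgam had 428, 767 and 630 counts in WT C, KO1 C and KO2 C. It had 1365 to 3369 in exosome libraries of letters A and B, and 1881 and 1371 in PBS (A, B). Border-associated macrophage markers summed to 3264, 2485 and 2639 in those letter C libraries, and to 4668 to 9282 in A and B. With PBS they summed to 4806 and 2772. Microglia markers summed to 26002, 29125 and 35429 in letter C and to 23140 to 26477 in exosome A and B. What the letter stands for, and its part or that of these markers in the values, was not tested.

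**Figure D4:**
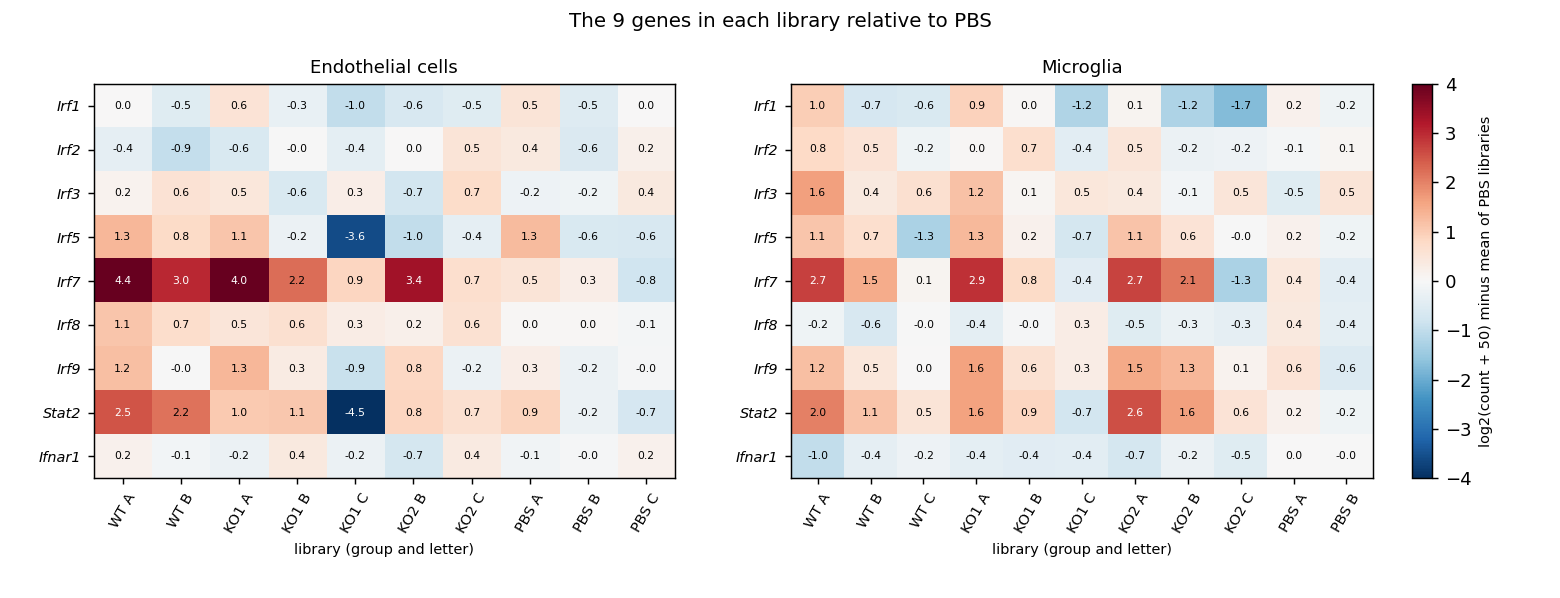
Level of the 9 genes (rows) in each library (columns, named by group and letter) of endothelial cells (left) and microglia (right), as log2(recovered normalised count + 50) minus the mean of the PBS libraries; red is above PBS and blue below. The largest values are those of Irf7, at 4.36 in endothelial WT A and 2.91 in microglial KO1 A, and the lowest are Stat2 and Irf5 in endothelial KO1 C, at -4.49 and -3.58, where both are listed at 0.

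The 9 genes did not all vary together. Across the 10 endothelial libraries Pearson's r on the deposited log2 values was 0.85 between Irf7 and Irf9, 0.70 between Irf7 and Stat2 and 0.70 between Irf7 and Irf8, while it was -0.48 between Irf7 and Irf2 and -0.26 between Irf7 and Ifnar1. Across the 11 microglial libraries it was 0.93 between Irf7 and Irf9, 0.89 between Irf7 and Stat2 and 0.89 between Irf7 and Irf5, and -0.53 between Irf7 and Ifnar1. Irf8 stood on opposite sides in the cell types, with r to Irf7 of 0.70 in endothelial cells and -0.41 in microglia. These values describe libraries that share treatment and letter.

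Of the 5 genes most like Irf7 in each cell type, 4 are on the list of interferon-stimulated genes, the others being Erlin1 in endothelial cells and B2m in microglia. That list holds 51 of the 12972 genes tested in endothelial cells and 50 of the 12709 in microglia. It was chosen with earlier results of these data known. Over the 10 endothelial libraries the 5 with the highest r were Isg15 (0.997), a ubiquitin-like protein, Bst2 (0.993), which tethers budding virus, Erlin1 (0.989), a protein of the endoplasmic reticulum, Rsad2 (0.987), the antiviral enzyme viperin, and Ifitm3 (0.984), which restricts virus entry. Over the 11 microglial libraries they were Ifitm3 (0.989), B2m (0.985), the light chain of class I molecules, Ifit1 (0.979), which binds foreign RNA, Rtp4 (0.977) and Cmpk2 (0.974). For Stat2 the most alike gene was Mfsd12 (0.958) in endothelial cells and Ifit1 (0.932) in microglia, and for Irf9 it was Ndufs4 (0.959) in endothelial cells and Ifi35 (0.95) in microglia. For Irf5 it was Plod3 (0.927) in endothelial cells and C3ar1 (0.95), a complement receptor of myeloid cells, in microglia.

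For the remaining genes the likest ones were Golga7b (0.926) for Irf1, Zfx (0.914) for Irf2, Gnpda1 (0.916) for Irf3, Lrch4 (0.941) for Irf8 and Slk (0.919) for Ifnar1 in endothelial cells. In microglia they were Ly6e (0.892) for Irf1, Kif1a (0.945) for Irf2, Zfp267 (0.902) for Irf3, Dpp7 (0.937) for Irf8 and Gadd45a (0.866) for Ifnar1.

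Other genes of the pathway were read in lists by role, and no gene of any list passed the adjusted threshold in any of the 4 contrasts of either cell type. Of 51 interferon-stimulated genes tested in endothelial cells 44 lay higher with WT exosomes than with PBS and 7 lower, with a median difference of 0.35, against -0.01 over all genes, and 18 had an unadjusted p under 0.05, all higher, where 3.31% of all genes did. Of all 12972 genes 5596 lay higher with WT. With knockout exosomes 45 of 51 lay above PBS, with a median of 0.17, where 6004 of all genes did. At an unadjusted p under 0.05 there were 4 of 51, all higher, where 1.87% of all genes were higher. Against WT 40 of 51 lay lower with knockouts, with a median of -0.18, where 5876 of all genes did. The WT libraries here are of letters A and B only, while the knockouts include KO1 C and KO2 C. This count was not repeated within letters or without letter C, so letter and exosome type cannot be told apart in it. In microglia 47 of 50 lay above PBS with WT exosomes, with a median of 0.50, where 6494 of all 12709 genes did. At an unadjusted p under 0.05 there were 2 of 50 higher and 1 lower, where 2.63% of all genes were higher and 2.35% lower. With knockout exosomes 44 of 50 lay above PBS, with a median of 0.44, where 6573 of all genes did. Between knockouts and WT 33 of 50 lay lower in microglia, with a median of -0.07, where 6307 of all genes did.

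Single genes from these lists are given as values. In endothelial cells Bst2 averaged 10200 counts with WT, 6085 with KO1, 4594 with KO2 and 1762 with PBS, and the WT minus PBS difference was 0.79 (SE 0.212). Gbp2, a guanylate-binding protein of host defence, averaged 4623 with WT, 712.3 with KO1, 2382 with KO2 and 622.5 with PBS, with a difference of 0.56 (SE 0.153). Among the kinases and adaptors that activate IRF3, IRF5 and IRF7, 14 of 19 lay higher with WT and 5 lower, beside 5596 and 7376 of all 12972 genes. Traf3, an adaptor, differed by -0.43 (SE 0.121), and Ikbke, a kinase of IRF3 and IRF7, by 0.37 (SE 0.145).

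Receptors and inhibitors had medians near 0 in endothelial cells, where 5596 of all 12972 genes lay higher with WT than with PBS. Of 8 receptors and Janus kinases 7 lay higher with WT exosomes than with PBS, with a median of 0.05, and of 11 inhibitors 6 lay higher, with a median of 0.03. Usp18, an inhibitor that ISGF3 induces, averaged 7500 counts with WT, 8232 with KO1, 2865 with KO2 and 1787 with PBS, with a difference of 0.60 (SE 0.301). In microglia 3 of 8 receptors and kinases and 7 of 11 inhibitors lay higher with WT, beside 6494 of all 12709 genes. Usp18 there averaged 4224 counts with WT, 3632 with KO1, 3267 with KO2 and 504.7 with PBS, with a difference of 1.15 (SE 0.628).

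Sting1, the adaptor of the cytosolic DNA sensor, averaged 474.1 counts with WT, 452 with KO1, 359.8 with KO2 and 169.6 with PBS in microglia, a WT minus PBS difference of 0.48 (SE 0.194). Slc15a4, also of the kinases and adaptors, lay lower in microglia, with a difference of -0.34 (SE 0.229). Of the interferon-stimulated genes in microglia, Parp9 averaged 51.77 counts with WT and 418.3 with PBS, a difference of -0.34 (SE 0.125). Uba7, of the same list, differed by 0.9 (SE 0.355) in microglia. Of the 20 kinases and adaptors tested there 13 lay higher and 7 lower, beside 6494 and 6172 of all 12709 genes. Of the other IRF and STAT factors 5 of 10 lay higher with WT than with PBS in endothelial cells, beside 5596 of all 12972 genes. In microglia 7 of 9 did, beside 6494 of all 12709 genes. Of 10 interferon ligands a single gene was tested in each type. This was Ifnk in endothelial cells, at group means of 0 to 5.96 counts, and Ifnb1, the gene of interferon beta, in microglia.

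Ifnb1 in microglia had 618, 359 and 130 counts in WT (A, B, C), 331, 569 and 24.6 in KO1 (A, B, C), 952, 1047 and 0 in KO2 (A, B, C), and 0 in PBS (A, B). It was read in 8 of 9 exosome libraries and listed at 0 in both PBS libraries, and it was listed at 0 in all 10 endothelial libraries. The share of all genes with this pattern was not counted, and Ifnb1 was added per library after its values were seen. WT minus PBS was 0.79 (SE 0.295, limma adjusted p = 0.907), with an unadjusted p of 0.0214. In each exosome group letter C was lowest, the order also seen for Irf7, Irf9 and Stat2.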

How the data were processed

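Sorted brain cells were profiled by RNA sequencing. Per the submitters' processing notes, the authors used Salmon 0.10.0, DESeq2 1.18.1, Trimmomatic 0.38, FastQC 0.11.7 and the build GRCm38.p6, in roles these notes leave out. The authors deposited, per cell type, variance-stabilised log2 values of 20555 genes, and a table of their likelihood ratio test with the mean count (a signal), a log2 fold change, its error and statistic (scores) and p-values. That fold change is not printed, since the sources used here do not name its contrast.

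Differences were tested on the deposited log2 values with limma 3.58.1 in R 4.3.3 with a mean-variance trend. All libraries of a cell type entered 1 fit with no term for the letter. Genes above the floor, the value of a gene with no reads, in at least 2 libraries were tested, 12972 in endothelial cells and 12709 in microglia, with Benjamini-Hochberg adjustment over them and a threshold of 0.05. A filter on a mean at least 1 above the floor would have kept 4 and 7 of the 9 genes. Normalised counts were recovered from the deposited values. In endothelial cells the recovered means divided by the authors' means gave 1.0000 for 362 genes. In microglia a curve fitted to the authors' 238 means missed held-out genes by at most 0.653% and is not anchored below a mean of 54.3. Libraries held 25.66 to 28.05 M recovered counts in endothelial cells and 26.91 to 29.32 M in microglia. Values in endothelial libraries stepped by 0.722 to 1.53 counts, taken as 1 read. Of values between 1 and 20 steps, 72.3 to 88.5% lay within 0.05 of a whole number, so no count test was run. The scripts were tested on simulated data.

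The members and lists were chosen with earlier results of these data known. All 9 members are named. From each list the text draws on the 2 genes of smallest p per contrast. The genes most like a member are those of highest Pearson r, 5 for Irf7 and 1 for each other. Ifnb1 per library was added after its values were seen. Symbols, positions and promoters are from RefSeq (20537 of 20555 genes had a symbol). Mx1 and Mx2 were not found under those symbols. Alternatives were another filter, no filter, recovered counts with a pseudocount of 50 or 5, the letter as a block, the groups of the contrast only, no trend, no letter C, and each library left out.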

Additional observations from a re-analysis of the deposited data

How the results depend on the processing

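Of the 72 member differences tested, 43 were also computed under other settings. Their 329 values gave 318 with the same direction and 11 reversed, and 451 values with 1 library left out gave 417 and 34. No member was called in any contrast under these settings, and the lowest limma adjusted p of the 43 was 0.0954. With 2 or 3 libraries a group, counts of all genes called moved widely. The F test over the 4 groups was added to the alternatives after seeing the data. The cause of these moves was not tested.

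All-gene counts in endothelial cells are given for the F test, WT minus PBS, knockouts minus PBS, knockouts minus WT and KO1 minus KO2, where 2, 3, 15, 4 and 0 were called. A filter on the mean left 0, 0, 0, 0 and 1. A pseudocount of 50 on recovered counts gave 21, 19, 23, 8 and 4, and a pseudocount of 5 gave 6, 16 and, for the last 2, 15 and 5. With no filter the F test called 15, WT minus PBS 9 and KO1 minus KO2 3. Without letter C the first 4 were all 0. Fitting only the groups of a contrast gave 1, 0 and 0 for the contrasts with PBS or WT, and no trend gave 1 for the F test and 0 for knockouts minus PBS.

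In microglia, where 0 were called by the F test, 1 in each contrast with PBS and 0 between KO1 and KO2, both contrasts with PBS gave 0 under the filter on the mean and with only their own groups. A pseudocount of 50 gave 6 for the F test, 5 for WT minus PBS, 11 for knockouts minus PBS and 1 for KO1 minus KO2, and a pseudocount of 5 gave 1, 0, 4 and 1. No filter gave 1 for the F test and for KO1 minus KO2, no trend 1 for KO1 minus KO2, and leaving out letter C 0 for WT minus PBS.

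With the letter as a replicate block, the first 4 endothelial counts were all 0, and in microglia the F test called 7, WT minus PBS 19 and knockouts minus PBS 11. The microglial Irf7 difference under the block was 1.73 for WT minus PBS (adjusted p = 0.111) and 1.59 for knockouts minus PBS (0.0954), and Stat2 was 0.731 for WT minus PBS (0.149). The labels give the letters no meaning, and the deviations of same-letter libraries correlated over 0.1 in 7 of 12 endothelial pairs (0.022 to 0.226) and 7 of 15 microglial ones (0.012 to 0.322), against 1 of 25 and 0 of 30 pairs of different letters, with medians of -0.047 and -0.039. All same-letter pairs lay above 0, though not every one passed 0.1, and the main fit did not take the letters as pairs. The main p-values therefore do not allow for shifts that libraries of a letter share. Deviations were taken from group means, so the 2 libraries of a small group mirror each other. Endothelial PBS A gave 0.12 with WT A and -0.12 with WT B, so part of the contrast between same and different letters is arithmetic. Reversed under the block were endothelial knockouts minus WT for Irf1 (0.064) and Irf9 (0.0776) and KO1 minus KO2 for Irf7 (-0.114). Without letter C these gave 0.00454, 0.0762 and -0.0707, and microglial knockouts minus WT gave -0.0582 for Irf5, 0.0375 for Irf7 and 0.0675 for Stat2. On recovered counts microglial Irf1, WT minus PBS, was -0.0983 with a pseudocount of 50 and -0.113 with 5.

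Leaving out 1 library at a time, endothelial counts of all genes ranged from 0 to 33 for the F test (33 without KO2 C), 0 to 32 for WT minus PBS (32 without WT B), 0 to 10 for knockouts minus PBS (0 without KO1 A), 0 to 77 for knockouts minus WT (77 without WT A) and 0 to 55 for KO1 minus KO2 (55 without KO2 C). In microglia they ranged from 0 to 1 for the F test, 0 to 2 for WT minus PBS and 0 to 1 for knockouts minus PBS. Endothelial WT minus PBS ranged from -0.185 to 0.00857 for Irf1, -0.0111 to 0.451 for Irf9 and -0.0265 to 0.0366 for Ifnar1. Endothelial knockouts minus WT ranged from -0.134 to 0.045 for Irf1, -0.0913 to 0.0063 for Irf3, -0.336 to 0.127 for Irf9 and -0.0743 to 0.0354 for Ifnar1, and KO1 minus KO2 from -0.371 to 0.644 for Irf7. Microglial WT minus PBS ranged from -0.188 to 0.111 for Irf1, -0.0903 to 0.624 for Irf5 and -0.429 to 0.0708 for Irf8. Microglial knockouts minus WT ranged from -0.215 to 0.0845 for Irf1, -0.312 to 0.401 for Irf5, -0.653 to 0.423 for Irf7, -0.0614 to 0.124 for Irf8, -0.182 to 0.196 for Stat2 and -0.0662 to 0.0869 for Ifnar1, and KO1 minus KO2 from -1.01 to 0.369 for Irf7.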

Other observations

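Irf4, a relative of Irf8 best known from lymphocytes, was read in part of the microglial libraries and listed at 0 in all 10 endothelial ones; it was chosen after its values were seen. It had 0, 149 and 190 normalised counts in WT A, B and C, 327, 0 and 0 in KO1 A, B and C, 183, 175 and 185 in KO2 A, B and C, and 0 in PBS A and B. All 3 KO2 libraries held it. The WT minus PBS difference was 0.43 (SE 0.244, limma adjusted p = 0.965).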
